A study of Rattus norvegicus with 17 samples.

Results

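Reactive astrocyte genes, which mark astrocytes and their response to injury and number 5 of the 32494 genes in the count table, were described in the spinal cords of 17 rats. They were Gfap (ENSRNOG00000002919), Vim (ENSRNOG00000018087), Serpina3n (ENSRNOG00000010410), Lcn2 (ENSRNOG00000013973) and Aqp4 (ENSRNOG00000016043), chosen as a named list of genes. The pairing of these identifiers with the symbols could not be checked for any member against an annotation of the count table. Of the 15460 genes with enough counts to be tested, 4 were members, and Serpina3n was the member left out. Spinal cord injury (SCI) was accompanied by higher levels of Gfap, Vim and Lcn2 in every one of the 8 injured rats than in any of the 9 intact rats, with levels 2.20-fold, 6.44-fold and 5.20-fold higher as means of log2 values, a lack of overlap that 8.52% of all genes tested showed in the higher direction. Aqp4 was lower by 25.6% in the injured rats of the comparison without stimulation (adjusted p = 0.036, edgeR, where 2.72% of all genes passed in the lower direction), below the fold limit for a call and not in every alternative fit, and overlapped between injured and intact rats. For the treatments, 0 of the 4 genes passed the test for stimulation of the brainstem or for pimozide, where 0.0% and 0.0259% of all genes did.

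Group A (n = 4) had sham surgery without a contusion and no stimulation, and group B (n = 3) had SCI and no stimulation. Group C (n = 3) had SCI and stimulation, group D (n = 2) had SCI, stimulation and pimozide at 1 mg/kg, and group E (n = 5) had sham surgery and stimulation. SCI was made by contusing the thoracic cord to a moderate degree, and sham surgery removed the lamina alone. Stimulation lasted 2 h, at 72 h after surgery, through an electrode in the nucleus raphe magnus (NRM), a serotonergic nucleus of the lower brainstem. Pimozide is an antagonist of serotonin and dopamine receptors. All rats were anesthetized, received buprenorphine and gentamycin, and carried the electrode, including those without stimulation. The rats were females of 10 to 12 weeks, described in the methods as Sprague-Dawley, whereas a label names Brown Norway. The treatment label of group E calls these rats unstimulated, against their titles and the definition of the groups, and they were analyzed as stimulated. Cervical, thoracic and lumbar cord with the pia-arachnoid were combined for each rat, so that a value averages the lesion and distant cord. In the names of the contrasts, ±SCI(0) is group B against A and ±st(SCI) is group C against B.

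Astrocytes are the glial cells that enclose synapses and blood vessels, clear transmitter and ions, and regulate water in the cord. After a lesion they become reactive, which means that their processes enlarge, their intermediate filaments accumulate and, near the damage, they form a border around it. Gfap and Vim encode filament proteins of the astrocyte skeleton, and Vim is also made by endothelial cells, fibroblasts, macrophages and ependymal cells. Lcn2 encodes lipocalin-2, a secreted protein that binds iron carriers and is made by reactive astrocytes and by neutrophils. Serpina3n encodes a secreted inhibitor of serine proteases, and Aqp4 encodes the water channel of the astrocyte endfeet on vessels.

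The libraries held between 9852873 and 14137717 counts, with 10334208 to 13883875 in the injured rats. Levels are given as CPM, the counts of a gene per 1000000 counts of the library after TMM scaling in edgeR, and are not corrected for gene length, so levels were compared between rats and not between genes. Gfap, the defining filament gene of astrocytes, had at least 33278 counts in every rat, whereas the other genes listed for a check of spinal cord could not be matched to identifiers. In a tissue of many cell types, fewer cells of a type and less RNA per cell cannot be told apart. The rats were numbered in the series 69 to 76 (1 rat of A, both of D and 1 of E) and 82 to 95 (the others), so group D lay wholly in the lower series.

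The first stretch of DNA upstream of a gene start holds part of what sets its transcription, and the 250 bases before the RefSeq start of the members are shown for the 3 genes that rose and for Aqp4. They are on build GRCr8, which is not that of the count table, at chr10:88361662-88361911 (minus strand) for Gfap, chr17:81577011-81577260 (plus strand) for Vim, chr3:36081781-36082030 (minus strand) for Lcn2 and chr18:6798843-6799092 (minus strand) for the first of the listed Aqp4 starts. Capitals mark the matches of 5 motifs searched on both strands. These were TTCNNNGAA (as bound by STAT factors), TGANTCA (as bound by AP-1), the box CCAAT, the box named TATAAA and the E-box CACGTG.
Gfap: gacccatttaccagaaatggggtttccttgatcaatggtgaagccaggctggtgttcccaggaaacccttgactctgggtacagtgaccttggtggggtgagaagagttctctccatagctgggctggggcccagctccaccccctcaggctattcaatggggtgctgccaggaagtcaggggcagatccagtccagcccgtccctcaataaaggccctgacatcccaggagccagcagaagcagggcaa
Vim: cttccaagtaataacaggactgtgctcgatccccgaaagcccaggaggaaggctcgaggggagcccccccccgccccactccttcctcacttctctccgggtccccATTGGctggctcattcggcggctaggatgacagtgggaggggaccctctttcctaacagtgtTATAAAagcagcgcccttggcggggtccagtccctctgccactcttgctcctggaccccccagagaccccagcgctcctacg
Lcn2: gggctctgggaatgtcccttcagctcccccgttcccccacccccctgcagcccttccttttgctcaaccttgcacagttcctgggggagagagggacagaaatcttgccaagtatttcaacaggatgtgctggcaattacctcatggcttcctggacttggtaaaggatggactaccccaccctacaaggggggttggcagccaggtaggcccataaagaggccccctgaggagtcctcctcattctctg
Aqp4: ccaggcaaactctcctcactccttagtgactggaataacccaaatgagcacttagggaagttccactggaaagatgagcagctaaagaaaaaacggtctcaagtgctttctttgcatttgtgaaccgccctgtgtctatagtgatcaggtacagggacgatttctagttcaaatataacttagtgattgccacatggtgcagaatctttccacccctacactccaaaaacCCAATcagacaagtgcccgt
Vim held ATTGG, the other strand of CCAAT, 144 bases before the start and TATAAA 82 bases before it. Aqp4 held CCAAT 20 bases before the first listed start, while the window of its second listed start, not shown, held none of the 5 motifs. Gfap and Lcn2 held none of the 5 motifs in their windows. Among 33469 rat promoter windows of the same length, CCAAT was found in 34.0%, TATAAA in 12.9%, TTCNNNGAA in 7.67%, TGANTCA in 6.34% and CACGTG in 5.59%. The promoter of Serpina3n, not shown, held TTCCCAGAA, a match of TTCNNNGAA, 123 bases before the start.

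Gfap, the principal filament protein of astrocytes, was higher in all injured rats. In group A, Gfap was at 4212, 3713, 3160.1 and 3797 CPM in rats 70, 82, 83 and 84. In group E it was at 3213, 3677, 3599, 3873 and 4454 CPM in rats 69, 85, 86, 87 and 88. The intact rats therefore lay in a single range, whether or not they were stimulated. In group B, Gfap was at 8060.4, 8292 and 8711 CPM in rats 91, 94 and 95. In group C it was at 7759.5, 8512 and 7936 CPM in rats 89, 90 and 93, and in group D at 7969.6 and 8211 CPM in rats 75 and 76. The lowest injured rat was above the highest intact rat, and the 3 injured groups overlapped. Mean levels were 3721 ± 433 CPM in A (SD, n = 4), 8354 ± 330 in B (SD, n = 3), 8069 ± 393 in C (SD, n = 3) and 3763 ± 455 in E (SD, n = 5). Gfap took 0.305 to 0.438% of all counts on genes in intact rats and 0.780 to 0.872% in injured rats.

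The injured rats were closer to one another in Gfap than the intact rats were, with a coefficient of variation (CV) of 3.87% (n = 8) against 11.1% (n = 9), a difference in spread that was not tested. In ±SCI(0), Gfap rose by a log2 fold change, log2(FC), of 1.17 ± 0.108 (SE), or 2.25-fold (95% interval 1.92 to 2.63), with an adjusted p of 5.2e-06 in edgeR's quasi-likelihood test. In ±st/SCI(0), group C against A, it rose by 1.12 ± 0.108 (adjusted p = 5.4e-06, edgeR), and in ±SCI(st), group C against E, by 1.10 ± 0.102 (adjusted p = 2.6e-06, edgeR). These contrasts share groups A and C. Averaged over the stimulation states, which sets groups B and C against A and E without group D, injury gave 1.13 ± 0.0743 (adjusted p = 1.8e-08, edgeR).

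Vim, the second filament gene, changed more and varied more. It was at 195, 168, 226 and 228 CPM in rats 70, 82, 83 and 84 of group A, and at 227, 280.4, 189, 197 and 190.1 CPM in rats 69, 85, 86, 87 and 88 of group E. In group B it was at 1464, 1049 and 1272 CPM in rats 91, 94 and 95. In group C it was at 2142, 1356 and 1047 CPM in rats 89, 90 and 93, and in group D at 883 and 2037 CPM in rats 75 and 76. No injured rat overlapped an intact rat, and the highest and lowest injured rats belonged to the stimulated groups. Vim rose by a log2(FC) of 2.63 ± 0.259 (SE) in ±SCI(0), or 6.19-fold (95% interval 4.23 to 9.04), with an adjusted p of 8.1e-06 (edgeR). The rise was 2.89 ± 0.261 in ±st/SCI(0) (adjusted p = 2.6e-06, edgeR) and 2.81 ± 0.241 in ±SCI(st) (adjusted p = 1.3e-06, edgeR), and over both states of stimulation 2.72 ± 0.177 (adjusted p = 1.8e-08, edgeR). The CV of Vim was 32.8% in the injured and 15.8% in the intact rats, so the injured rats, which were uniform in Gfap, were not uniform in Vim. Because Vim is also made by other cell types whose marker lists could not be matched, the part of those cells in its rise was not tested.

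**Figure D1:**
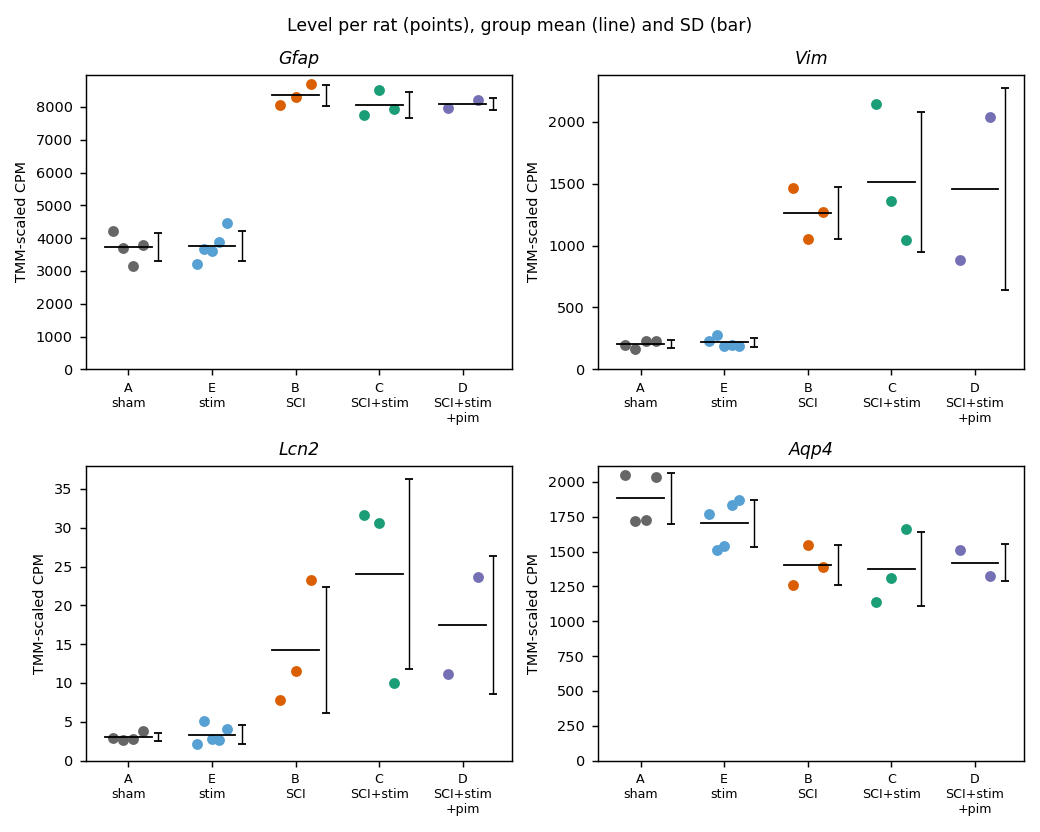
Levels of Gfap, Vim, Lcn2 and Aqp4 in CPM on a linear axis, with 1 point for each of the 17 rats in groups A to E. A line gives the group mean and a bar the SD. Gfap, Vim and Lcn2 of the 8 injured rats (B, C and D) lie above those of all 9 intact rats (A and E), and Aqp4 of the injured rats lies lower with overlap.

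Lcn2, the secreted member, was at low counts in intact cord. It had 28, 34, 29 and 38 counts in rats 70, 82, 83 and 84 of group A, which is 2.92, 2.67, 2.75 and 3.75 CPM. In group E it was at 2.13, 5.08, 2.73, 2.63 and 4.03 CPM in rats 69, 85, 86, 87 and 88, from 25 to 65 counts. Such counts carry a sizeable counting error, with a 95% Poisson interval of 18.6 to 40.5 for 28 counts, which covers counting error only. In group B, Lcn2 was at 7.80, 11.5 and 23.3 CPM in rats 91, 94 and 95, from 85, 120 and 242 counts. In group C it was at 31.6, 30.6 and 9.99 CPM in rats 89, 90 and 93, and in group D at 11.2 and 23.7 CPM in rats 75 and 76. All injured rats were above all intact rats, and both low and high rats were found in each injured group. Lcn2 rose by a log2(FC) of 2.23 ± 0.441 (SE) in ±SCI(0), or 4.70-fold (95% interval 2.47 to 8.96), with an adjusted p of 0.0028 (edgeR). The value was 2.99 ± 0.433 in ±st/SCI(0) (adjusted p = 0.00015, edgeR) and 2.85 ± 0.393 in ±SCI(st) (adjusted p = 6.7e-05, edgeR). Over both states of stimulation it was 2.54 ± 0.296 (adjusted p = 5.6e-06, edgeR). The CV of Lcn2 was 51.8% in the injured and 28.9% in the intact rats.

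Since neutrophils also make Lcn2, markers of these cells were summed in each rat. Of 9 listed neutrophil markers, 6 were matched (S100a8, S100a9, Mpo, Elane, Camp and Ngp). Their summed level was 5.52 to 68.0 CPM in group A, 6.38 to 72.1 in E, 16.0 to 21.0 in B, 74.0 to 121.9 in C and 19.6 to 29.7 in D. The sum of group B lay within the range of group A. In ±SCI(0), 0 of the 6 markers were called, against 5.09% of all genes called higher, and their median log2(FC) was -0.92. In ±st/SCI(0), 0 of 6 were called (6.7% of all genes higher) with a median of 1.63. There the exact test of edgeR called 5 higher, beside 977 of 14700 genes, and DESeq2 called 1, beside 1050 of 15460 genes. In ±SCI(st), 3 of 6 (Mpo, Elane and Camp) were called higher (7.34% of all genes) with a median of 1.76, and group C was above all other groups in the sum. Elane was at 0 in 2 rats, and the other 5 markers had counts in every rat. The part of neutrophils in the higher Lcn2 of the injured groups was not tested. Of 5 erythroid markers, 5 were matched, with a sum of 153 to 794 CPM in intact and 174 to 1244 CPM in injured rats. None of them was called in ±SCI(0), beside 5.09% of all genes called higher and 0.213% lower, and their median log2(FC) was -1.14. The exact test of edgeR called 2 of them lower there, beside 50 of 14657 genes. In ±SCI(st), 4 were called higher, with a median of 1.54, beside 7.34% of all genes.

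**Figure D2:**
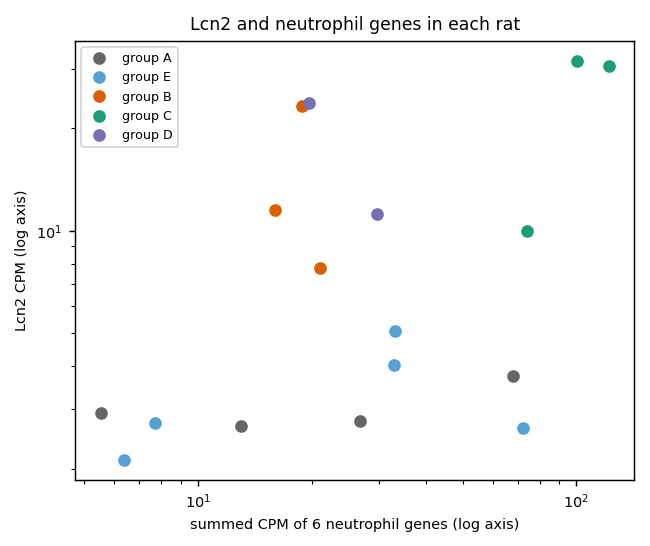
Lcn2 in CPM (vertical, log axis) against the summed level of the 6 matched neutrophil markers in CPM (horizontal, log axis), with 1 point per rat and the groups in color. The 3 rats of group B have Lcn2 of 7.80 to 23.3 CPM at a sum of 16.0 to 21.0 CPM, inside the intact range of 5.52 to 72.1 CPM, and the 3 rats of group C have the highest sums.

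Serpina3n, the second secreted member, was almost without counts. The row given for this gene held 1 count in rat 90 of group C (0.0921 CPM) and 0 in the other 16 rats. A count of 0 allows up to 3 counts (the 1-sided 95% limit), which is 0.212 to 0.304 CPM at these depths, so no difference was detectable and no fold change was calculated. The cause of the near-empty row was not tested. Reads shared with near-identical Serpina3 copies, a wrong pairing of identifier and symbol, and the strand setting of the counting could not be told apart. The row therefore says nothing of the protease inhibitor family as a whole.

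Aqp4, the water channel, moved the other way and by less. It was at 2052, 1718, 1729.5 and 2033 CPM in rats 70, 82, 83 and 84 of group A, and at 1772, 1509, 1541, 1831 and 1869.7 CPM in rats 69, 85, 86, 87 and 88 of group E. In group B it was at 1264, 1549 and 1393 CPM in rats 91, 94 and 95. In group C it was at 1141, 1313 and 1664 CPM in rats 89, 90 and 93, and in group D at 1514 and 1329 CPM in rats 75 and 76. Groups B and C each lay below all of group A, as did 15.1% and 12.5% of all genes tested, but rat 93 of group C lay within the range of group E. Aqp4 fell by 0.43 ± 0.127 (SE) on the log2 scale in ±SCI(0), or 0.744-fold (95% interval 0.618 to 0.896), with an adjusted p of 0.036 (edgeR), short of the fold limit of the call rule. In ±st/SCI(0) the log2(FC) was -0.46 ± 0.127 (adjusted p = 0.017, edgeR), and in ±SCI(st) it was -0.31 ± 0.121 (adjusted p = 0.063, edgeR), with -0.19 without rat 89 and -0.47 without rat 93. Over both states of stimulation it was -0.37 ± 0.0877 (adjusted p = 0.0036, edgeR). Of all genes tested, 2.72% passed the FDR threshold in the lower direction in ±SCI(0), 7.08% in ±st/SCI(0), 11.3% in ±SCI(st) and 17.9% over both states. The adjusted p of ±SCI(0) missed 0.05 without rat 70 (0.088), rat 84 (0.081), rat 91 (0.19) or rat 95 (0.11), and that of ±st/SCI(0) without rat 89 (0.12) or rat 90 (0.061). Over both states of stimulation it stayed under 0.05 in all 23 alternative fits (0.00013 to 0.014).

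In ±SCI(0), 3 of the 4 members tested were called higher (false discovery rate, FDR, under 0.05 and log2(FC) beyond 1), against 5.09% of all genes tested. The same count of 3, each time Gfap, Vim and Lcn2, was found in ±st/SCI(0) (6.7% of all genes), in ±SCI(st) (7.34%) and over both states of stimulation (6.68%). The median log2(FC) of the 4 tested members in ±SCI(0) was 1.70, beside -0.02 over all genes tested. It was 2.00 in ±st/SCI(0), 1.95 in ±SCI(st) and 1.84 over both states, beside -0.02 in each over all genes. In the full comparison of 8 injured with 9 intact rats, Gfap, Vim and Lcn2 did not overlap, as did 8.52% of all genes tested in the higher direction. The difference in mean log2(CPM + 0.1) was 1.13 for Gfap, 2.69 for Vim and 2.38 for Lcn2, each with a 2-sided exact permutation p of 8.23e-05, the smallest the test can give. For Aqp4 it was -0.36 (exact permutation p = 0.00074). Within the rats numbered 82 to 95, 6 injured against 7 intact, the differences were 1.13, 2.69 and 2.30 for Gfap, Vim and Lcn2, each at an exact permutation p of 0.00117, the smallest possible there, and -0.34 for Aqp4 (exact permutation p = 0.00699).

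**Figure D3:**
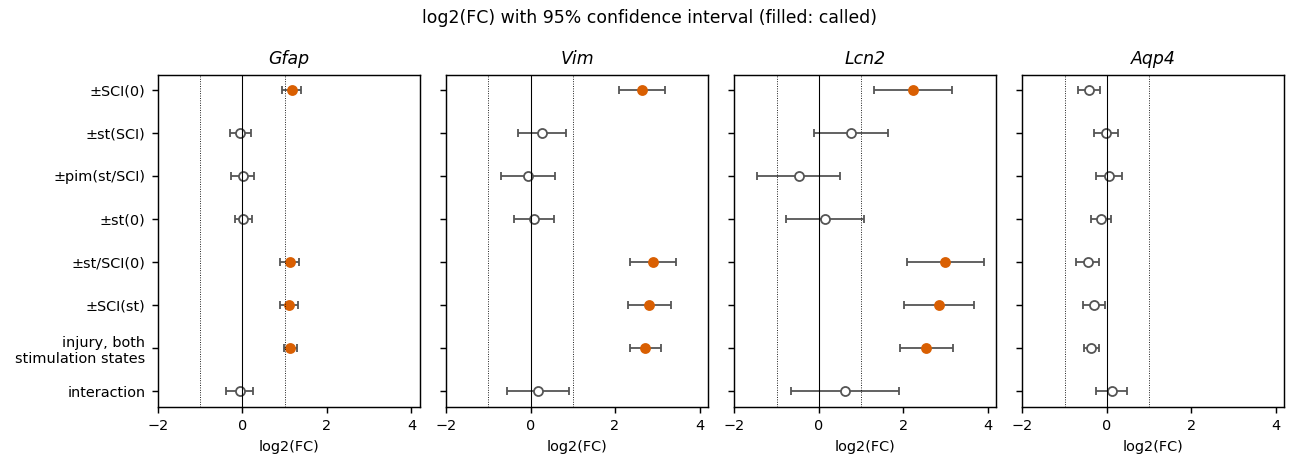
Fitted log2(FC) of Gfap, Vim, Lcn2 and Aqp4 in the contrasts of the study and in the average and interaction of injury and stimulation, with 95% intervals from edgeR. The intervals of Gfap, Vim and Lcn2 lie above 0 in the contrasts of injury, and those of all 4 genes span 0 in ±st(SCI), ±pim(st/SCI), ±st(0) and the interaction.

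Stimulation of the injured cord, ±st(SCI), left all 4 tested members without a change that passed the test. Gfap differed 0.966-fold (95% interval 0.815 to 1.14), Vim 1.20-fold (0.809 to 1.78), Lcn2 1.69-fold (0.919 to 3.12) and Aqp4 0.979-fold (0.805 to 1.19), all with an adjusted p of 0.999 (edgeR). The interval was narrow for Gfap and Aqp4 and reached 3.12-fold for Lcn2, and the rats of groups B and C overlapped in every member. Of all genes tested, 0.0% were called in this contrast, 476 had an unadjusted p under 0.05 and DESeq2 called 0. The exact test of edgeR on groups B and C alone called 36 of 14628 genes and none of the members. The log2(FC) of Lcn2, 0.76 ± 0.417 (SE), was 1.32 without rat 95 and 0.46 without rat 91, and neutrophil markers moved with it (median log2(FC) of 2.36, 0 of 6 called, but 5 of the 5 tested called higher by the exact test of edgeR, with 4 of 5 erythroid markers).

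In intact cord, ±st(0), stimulation gave 1.01-fold for Gfap (95% interval 0.879 to 1.16), 1.06-fold for Vim (0.765 to 1.48), 1.10-fold for Lcn2 (0.583 to 2.09) and 0.905-fold for Aqp4 (0.770 to 1.06). None of the 4 was called, where 0.0% of all genes were, 1297 had an unadjusted p under 0.05, DESeq2 called 15 and the exact test of edgeR 20. The effect of stimulation was not shown to differ between injured and intact cord in any member. The interaction was -0.07 ± 0.150 (SE) on the log2 scale for Gfap, 0.18 ± 0.351 for Vim, 0.62 ± 0.604 for Lcn2 and 0.11 ± 0.174 for Aqp4, each with an adjusted p of 1 (edgeR), and 0.0% of all genes were called, with 635 at an unadjusted p under 0.05 and 0 by DESeq2. The interaction of Lcn2 ran from 0.32 without rat 91 to 1.17 without rat 95, and was 0.37 without rat 89, 0.41 without rat 90 and 1.00 without rat 93. Beside it, the median interaction was 2.49 for the neutrophil markers (0 of 6 called) and 2.53 for the erythroid markers (0 of 5 called).

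Pimozide before stimulation, ±pim(st/SCI), was compared on 2 rats of group D. Gfap differed 1.00-fold (95% interval 0.829 to 1.21), Vim 0.963-fold (0.619 to 1.5), Lcn2 0.722-fold (0.366 to 1.42) and Aqp4 1.04-fold (0.831 to 1.29). None of the 4 was called, against 0.0259% of all genes (4 genes), with 1370 at an unadjusted p under 0.05 and with 32 called by DESeq2 and 78 by the exact test of edgeR. The log2(FC) of Vim, -0.05, was -0.78 without rat 76, 0.43 without rat 75 and 0.28 without rat 89. The log2(FC) of Lcn2, -0.47, was -1.10 without rat 76, -0.02 without rat 75, -0.84 without rat 93, -0.22 without rat 89, -0.26 without rat 90 and -0.05 with a term for the number series. Beside it, neutrophil markers had a median log2(FC) of -2.04 (0 of 6 called) and erythroid markers one of -1.93 (0 of 5 called). The exact test of edgeR called 5 neutrophil and 2 erythroid markers lower, beside 27 of 14925 genes. The Vim values of the 2 rats, 883 and 2037 CPM, lay on either side of most injured rats, and rats 75 and 76 have numbers of the lower series, whose term in the fit rests on rats 70 and 69 of the intact groups.

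Ratios of the members within a rat do not depend on the scaling of libraries. The ratio of Gfap to Aqp4 counts was 2.11 ± 0.241 in intact (SD, n = 9) and 5.93 ± 0.713 in injured rats (SD, n = 8). It was 1.81 to 2.44 in the first and 4.77 to 6.80 in the second, without overlap, and 2.81-fold higher on the log scale (exact permutation p = 8.23e-05, the smallest possible). The ratio of Vim to Gfap was 0.0573 ± 0.0127 in intact (SD, n = 9) and 0.173 ± 0.0597 in injured rats (SD, n = 8), 2.93-fold higher with the same exact permutation p. The ratio of Vim to Aqp4 was 8.24-fold higher, also with that exact permutation p. The filament genes therefore did not rise in proportion, and the counts shifted toward Vim within the pair. The quotient of counts carries the lengths of both genes, so the ratio itself is no ratio of molecules, while its fold between rats is free of length.

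**Figure D4:**
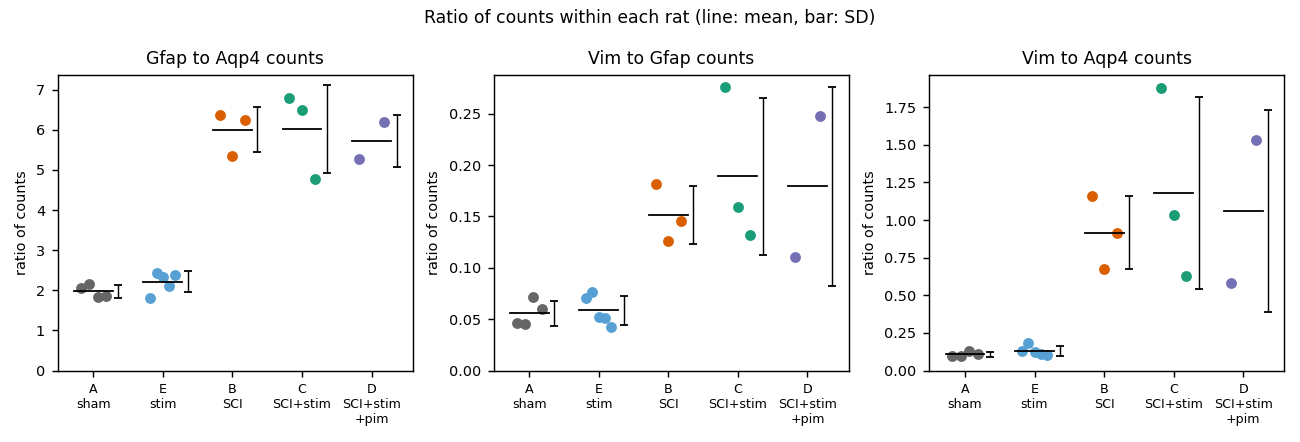
Ratios of counts within each rat (linear axis) for Gfap to Aqp4, Vim to Gfap and Vim to Aqp4, with 1 point per rat in groups A to E. The injured rats lie above the intact rats in each ratio, with Gfap to Aqp4 at 4.77 to 6.80 against 1.81 to 2.44.

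Across the 8 injured rats, those with more Vim had less Aqp4. Pearson's r of their log2 levels was -0.84 (permutation p = 0.0101, adjusted over 12 relations 0.122) and Spearman's rho was -0.86 (permutation p = 0.0107, adjusted 0.129), so the relation did not pass the adjustment. Without rats 89 and 76, the farthest from the median of Vim, r was -0.83. It was -0.94 in the 6 injured rats of the higher number series and -0.81 with scaling by total counts. In the 9 intact rats r was -0.26 (permutation p = 0.507, adjusted 0.676), but rho was 0.017, and r was 0.18 without rats 82 and 85. Rat 89, with the most Vim, had the least Aqp4, and rat 93 of the same group had less Vim and the most Aqp4 of the injured rats. Vim and Lcn2 had r = 0.61 across the injured rats (permutation p = 0.114, adjusted 0.458), which fell to 0.29 without rats 89 and 76. None of the 12 relations among the 4 genes passed the adjustment.

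**Figure D5:**
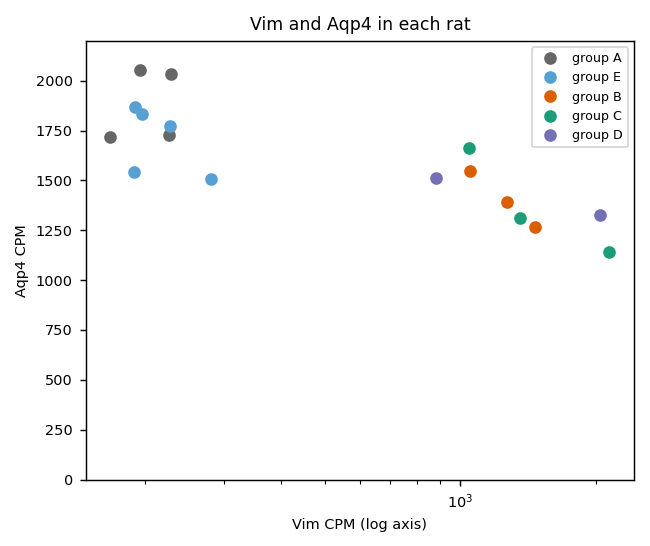
Aqp4 (vertical, linear axis) against Vim (horizontal, log axis) in CPM, with 1 point per rat and the groups in color. The injured rats lie at Vim of 883 to 2142 CPM with lower Aqp4 at higher Vim (r = -0.84, n = 8). The intact rats lie at 168 to 280.4 CPM with r = -0.26 (n = 9), which is 0.18 without rats 82 and 85.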

How the data were processed

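Spinal cord RNA of 17 rats was sequenced as stranded libraries depleted of ribosomal RNA. According to the methods, the authors trimmed single-end reads, aligned them with STAR and counted them per Ensembl gene. The deposited values are whole-number counts, not normalized. The submitters' processing notes list bcl2fastq 1.8.4, Trim Galore 0.4.1 and STAR 2.5.0a. The build is Rnor_5.0 in the methods and rn6 in the notes, and the strand setting of the counting is not stated, so that antisense reads cannot be told apart.

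Counts were analyzed in R 4.3.3 with edgeR 4.0.16 (filterByExpr, TMM, glmQLFit and glmQLFTest), with 1 coefficient for each of the 5 groups, and with DESeq2 1.42.0 as an alternative. P-values were adjusted by Benjamini-Hochberg over all genes tested, and calls needed both an FDR below 0.05 and a log2(FC) beyond 1 in either direction. Intervals are 95% intervals of the fit. Single values were compared by 2-sided exact permutation tests on log2(CPM + 0.1) in Python 3.11.15 with scipy 1.17.1. The fit was tested on simulated data. Labels give each rat as a separate sample. Ratios and relations were added with the values known, and the members and lists were chosen with earlier results of these data known.

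Named genes were the 5 members, the genes of fixed lists, and, for each member, the genes whose centered log2 level over the rats had the smallest mean gap, among genes averaging 1 CPM or more. Of the nearest genes without a name, at most 2 identifiers that rose and 2 that fell are printed. Only 99 identifiers beyond the members could be paired with names, from a supplementary table. All 9 pathway lists of astrocytes and the marker lists of macrophages and microglia, endothelium, fibroblasts, neurons, oligodendrocytes and their precursors, ependyma and hepatocytes matched 0 identifiers and were not analysed here. The astrocyte list matched Gfap and Aqp4 and the list for spinal cord Gfap.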

Additional observations from a re-analysis of the deposited data

How the results depend on the processing

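No paired analysis was possible because the groups share no rat numbers. The count of called members stayed at 3 in each contrast of injury and at 0 in the others in all alternatives run (other tests, scalings, filters, dispersions, a term for the number series, and each rat left out in turn), except that without a limit on fold it was 4 in ±SCI(0), in ±st/SCI(0) and in injury over both stimulation states, where Aqp4 joined. The adjusted p of Aqp4 in ±SCI(0) was 0.0504 with total counts and 0.066 with a term for the number series, in ±st/SCI(0) it was 0.055 with only the rats of the contrast, and in ±SCI(st) it was 0.034 with DESeq2, 0.0060 without rat 93 and 0.0499 without rat 85, against 0.32 without rat 89 and 0.17 without rat 90. Over all genes, edgeR's exact test on the 2 groups alone called 36 for stimulation after SCI, 78 for pimozide and 20 for stimulation of intact cord, where the quasi-likelihood test called 0, 4 and 0 and DESeq2 0, 32 and 15. Signs turned only in contrasts without a called member, and the cause was not tested. Aqp4 in ±pim(st/SCI) was -0.068 with a term for the number series. With each rat left out in turn, log2(FC) in ±pim(st/SCI) ran from -0.023 to 0.044 for Gfap, -0.78 to 0.43 for Vim and -0.067 to 0.21 for Aqp4. In ±st(SCI) it ran from -0.071 to 0.48 for Vim and -0.18 to 0.087 for Aqp4. In ±st(0) it ran from -0.051 to 0.081 for Gfap, -0.023 to 0.15 for Vim and -0.067 to 0.26 for Lcn2. The interaction ran from -0.13 to 0.0062 for Gfap, -0.16 to 0.39 for Vim and -0.041 to 0.23 for Aqp4. Lcn2 kept its sign, from -1.10 to -0.02 in ±pim(st/SCI) and from 0.32 to 1.17 in the interaction. Depth limits Lcn2 in intact rats (25 to 65 counts). Serpina3n, with 1 count in all, gave no value to compare, and the cause was not tested. The edgeR exact test could not be run for the average and the interaction.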

Other observations

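Aqp1 is a water channel of the same family as Aqp4, and a gene that the study listed from ±st(SCI). Its level was 5.73 ± 3.84 CPM in group A (SD, n = 4), 4.14 ± 2.20 in B (SD, n = 3), 12.1 ± 3.09 in C (SD, n = 3) and 4.09 ± 1.70 in E (SD, n = 5), with 3.99 and 7.81 CPM in the 2 rats of D. In ±SCI(0) its log2(FC) was -0.47 ± 0.536 (SE, adjusted p = 0.60, edgeR), beside -0.43 for Aqp4. In ±st/SCI(0) it was 1.07 ± 0.492 (adjusted p = 0.12, edgeR), beside -0.46 for Aqp4. In ±SCI(st) it rose by 1.57 ± 0.470 (adjusted p = 0.020, edgeR), beside -0.31 for Aqp4 and a median of 1.54 for the 5 erythroid markers, 4 of them called. The difference between Aqp1 and Aqp4 was not tested. In ±st(SCI) it had 1.54 ± 0.550 (adjusted p = 0.999, edgeR).

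Among 14514 other genes averaging 1 CPM or more, the gene whose course over the 17 rats was most like that of Gfap was ENSRNOG00000014797, with a mean gap of 0.118 between the centered log2 levels and a mean of 85.1 CPM in intact and 200 CPM in injured rats. For Vim it was ENSRNOG00000010529, with a gap of 0.186 and means of 56.3 and 325 CPM. For Aqp4 the nearest were ENSRNOG00000008305, with a gap of 0.0668, and ENSRNOG00000008088, with 0.0673. The nearest gene to Lcn2 had a gap of 0.281, and Vim held place 43 among all genes in likeness to Lcn2. None of these nearest genes could be paired with a name.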
